A study of Homo sapiens with 9 samples.

Results

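The annexins examined here were the 10 genes ANXA1, ANXA2, ANXA3, ANXA4, ANXA5, ANXA6, ANXA7, ANXA10, ANXA11 and ANXA13, chosen by symbol from the 58920 genes listed in the count files. Of these, 9 passed the filter on low counts and were among the 19102 genes tested, and ANXA10 did not pass it. Their RNA was measured in LIM1215-parental, a colorectal cancer cell line that is sensitive to the EGFR antibody cetuximab, and in LIM1215-R1 and LIM1215-R2, populations derived from it by long exposure to rising cetuximab concentrations in separate selections. Both resistant lines were mixed populations and not clones, and the parental cells had been kept in culture alongside them without the antibody. All cells had the growth medium with serum and no added drug as far as the labels state. By the study's methods, resistant cells were maintained with cetuximab after selection and had it withdrawn before drug treatments. This culture history cannot be told apart from the difference between resistant and parental lines. The 9 polyA RNA libraries, 3 per line, held between 13737416 and 18725014 counts.

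Annexins are proteins that bind acidic phospholipids, above all phosphatidylserine, when calcium rises, through a core of repeated domains that most members share and that is duplicated in ANXA6. Their amino-terminal tails differ and carry the binding sites for S100 proteins and for kinases, so that members act in exocytosis, endosome traffic, plasma membrane repair and the resolution of inflammation. ANXA1 and ANXA2 are classical substrates of EGFR and SRC family kinases, and ANXA13 is known for its restriction to intestinal epithelium.

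The study calls the 3 libraries of a line technical replicates, so p-values here set differences between lines against the spread between these libraries. Differences between cultures cannot be told apart from differences between lines. Counts of each pair of replicates differed by more than counting noise, with chi-square statistics of 1.82 to 6.04 per degree of freedom, and no library was counted as a copy of another. Levels are counts scaled to library size (CPM), corrected with TMM factors of 0.984 to 1.02 for library composition, and are given as mean ± SD of n = 3. A gene was called different at an adjusted p of at most 0.01 in edgeR's quasi-likelihood test, and a differentially expressed gene (DEG) also had a log2 fold change of at least 1.5 in size. Epithelial markers of the colon summed to 12742 to 13119 CPM in the parental libraries, 15899 to 16172 in LIM1215-R1 and 14429 to 14832 in LIM1215-R2, with KRT20 at 0 counts in all 9 libraries. Most of this sum was KRT8 and KRT18, and of the 9 colon markers tested, KRT8, KRT18 and VIL1 were called higher and EPCAM, CDX1, CDX2, CDH17 and LGALS4 lower in each resistant line, with median log2 fold changes of -0.23 and -0.32. The part of these markers in the annexin values was not tested. Fibroblast markers summed to at most 3.19 CPM, endothelial markers to at most 0.722 and leukocyte markers to at most 0.375, and PTPRC, CD3E, MS4A1, COL1A2 and KDR were at 0 throughout. PECAM1 had 15 counts in the parental libraries and 0 in the resistant ones. In such bulk samples, fewer cells that express a gene and less of its RNA per cell cannot be told apart.

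The start sites of 3 members are shown because ANXA1 and ANXA6 rose in both resistant lines while ANXA2 had the highest level per kb of transcript in every line and changed by less than either. Each window spans 250 bases before to 50 after a RefSeq start site, from GRCh38.p14, 5′ to 3′ on the gene's strand. Capitals mark matches to 5 promoter motifs, searched on both strands. A match to the TATA box, which positions the polymerase, needed the letters TATAAA, and a match to the GC box, which SP1 family factors bind, needed GGGCGG. The binding site of the NF-Y complex was searched as CCAAT and that of the AP-1 factors, targets of mitogen signalling, as TGAGTCA. For the cyclic AMP response element (CRE) the letters were TGACGTCA, and no motif contains another. The ANXA1 window lies at chr9:73151615-73151914 on the plus strand, the ANXA6 window at chr5:151157730-151158029 on the minus strand and the ANXA2 window at chr15:60397937-60398236 on the minus strand.
ANXA1: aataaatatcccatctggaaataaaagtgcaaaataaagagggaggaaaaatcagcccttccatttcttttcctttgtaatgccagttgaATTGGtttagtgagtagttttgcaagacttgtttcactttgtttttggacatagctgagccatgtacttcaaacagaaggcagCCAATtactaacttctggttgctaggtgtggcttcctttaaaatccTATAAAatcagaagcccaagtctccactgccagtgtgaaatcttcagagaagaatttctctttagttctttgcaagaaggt
ANXA6: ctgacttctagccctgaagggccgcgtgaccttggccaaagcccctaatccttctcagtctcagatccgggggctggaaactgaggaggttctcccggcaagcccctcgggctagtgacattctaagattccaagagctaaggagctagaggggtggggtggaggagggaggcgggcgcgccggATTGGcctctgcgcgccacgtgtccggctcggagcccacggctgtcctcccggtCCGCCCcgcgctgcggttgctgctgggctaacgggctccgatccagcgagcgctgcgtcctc
ANXA2: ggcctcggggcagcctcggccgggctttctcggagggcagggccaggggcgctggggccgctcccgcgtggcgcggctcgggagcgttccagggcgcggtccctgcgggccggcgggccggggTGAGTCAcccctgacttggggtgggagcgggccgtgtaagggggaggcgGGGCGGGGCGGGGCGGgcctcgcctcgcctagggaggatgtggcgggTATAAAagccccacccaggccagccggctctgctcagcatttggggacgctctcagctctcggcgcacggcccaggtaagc

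The windows of the genes that rose were unlike in composition, with a GC content of 37.67% for ANXA1 and 66.33% for ANXA6, beside 76% for ANXA2. ANXA1 held a TATA box 31 bases before its start site and CCAAT matches 160 and 77 bases before it, whereas ANXA6 held a GC box 12 bases and a CCAAT match 66 bases before its start and no TATA box. ANXA2 held a TATA box 31 bases before its start, 3 GC boxes that overlap at their ends, and an AP-1 match 127 bases before the start. Over the 13 windows of 9 members, 4 held a TATA box, 7 a GC box, 4 CCAAT, 1 an AP-1 site and 0 a CRE. These 9 members include ANXA10 and leave out ANXA13, so they are not the 9 members tested. Of all 35116 promoter windows of this length, 11.53% held a TATA box, 44.95% a GC box, 34.61% CCAAT, 4.949% an AP-1 site and 1.848% a CRE. ANXA6 has a second RefSeq start site inside the gene (chr5:151141635-151141934, minus strand) with none of these matches, and the gene counts do not separate transcripts from the 2 starts. These matches describe letters only and no binding was measured.

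Among the annexins called, ANXA1 and ANXA6 differed most between resistant and parental cells, and both were higher in each resistant line. ANXA13, at the limit of detection, had log2 fold changes of -1.51 in LIM1215-R1 and -1.90 in LIM1215-R2 that were not called. The former was larger in size than the 1.42 of ANXA6 in LIM1215-R1. Against parental cells, 5 of 9 members tested were called higher and 0 lower in LIM1215-R1, where 14.0% of all genes tested were called higher and 13.4% lower. In LIM1215-R2, 2 members were called higher and 2 lower, beside 12.3% and 11.6% of all genes. At the DEG threshold, ANXA1 passed in LIM1215-R1 (3.24% of all genes were DEGs that were higher and 1.91% DEGs that were lower), and ANXA1 and ANXA6 passed in LIM1215-R2 (2.63% and 2.19%). For the count of 0 lower in LIM1215-R1, edgeR gave 1 member lower at an unadjusted p under 0.05, and DESeq2 called 0. The median log2 fold change of the 9 members was 0.16 in LIM1215-R1 and 0.08 in LIM1215-R2, beside -0.01 and -0.0037 over all genes tested. Both comparisons share the parental libraries.

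**Figure D1:**
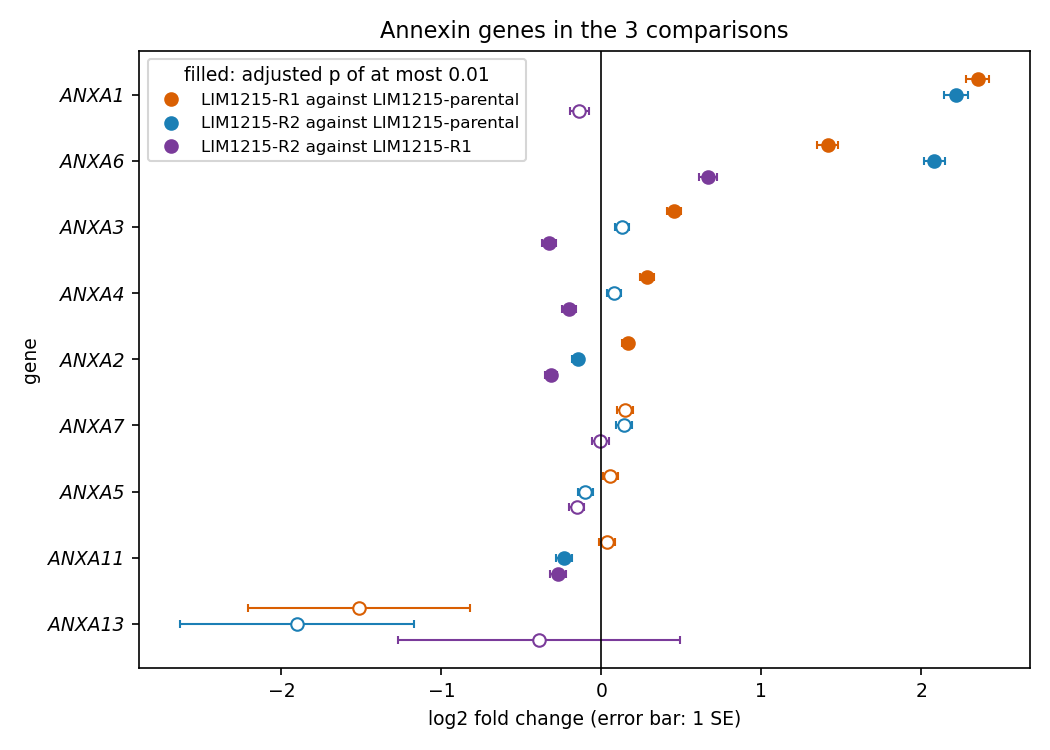
Log2 fold changes (x axis) of the 9 annexins tested (y axis) in LIM1215-R1 against parental (orange), LIM1215-R2 against parental (blue) and LIM1215-R2 against LIM1215-R1 (purple), with bars of 1 SE and filled points for an adjusted p of at most 0.01. ANXA1 and ANXA6 lie between 1.42 and 2.35 in both resistant lines, and the other members with filled points lie within 0.46 of 0.

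ANXA1 (ENSG00000135046, chromosome 9, 73151865-73170393, plus strand) encodes lipocortin 1, a glucocorticoid-inducible inhibitor of phospholipase A2 and a ligand of formyl peptide receptors. It had 324, 222 and 338 counts in the parental libraries, which is 19.1, 16.0 and 17.8 CPM. It reached 96.1, 84.2 and 91.2 CPM in LIM1215-R1, and 80.1, 86.0 and 81.0 CPM in LIM1215-R2. Every resistant library lay above every parental library, and the ranges of the resistant lines overlapped. Mean levels were 17.6 ± 1.54 CPM in parental cells, 90.5 ± 5.98 in LIM1215-R1 and 82.3 ± 3.16 in LIM1215-R2. ANXA1 was thus 5.11-fold higher in LIM1215-R1 (log2 fold change 2.35, SE 0.0726, adjusted p = 1.17e-19 in edgeR's quasi-likelihood test). In LIM1215-R2 it was 4.65-fold higher (2.22, SE 0.0730, adjusted p = 3.74e-19). The resistant lines did not pass the test against each other for ANXA1, with a log2 difference of -0.14 and a 95% interval from -0.26 to -0.02 (adjusted p = 0.166).

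ANXA6 (ENSG00000197043, chromosome 5, 151100706-151157815, minus strand) encodes the annexin with the duplicated core, a scaffold that brings protein kinase C alpha and a Ras GTPase-activating protein to membranes and acts in late endosomes. Its canonical transcript has 26 exons, where those of ANXA1, ANXA2, ANXA3, ANXA4, ANXA5 and ANXA7 have 13. It was at 19.9, 21.7 and 19.9 CPM in the parental libraries, 54.2, 53.5 and 56.1 CPM in LIM1215-R1 and 84.4, 86.4 and 89.3 CPM in LIM1215-R2. No library of one line reached the range of another, and the order was parental, LIM1215-R1, LIM1215-R2. ANXA6 was 2.67-fold higher in LIM1215-R1 than in parental cells (log2 fold change 1.42, SE 0.0669, adjusted p = 9.93e-16), which was called but lay under the DEG threshold. It was 4.24-fold higher in LIM1215-R2 (2.08, SE 0.0650, adjusted p = 1.2e-19). Unlike ANXA1, it also differed between the resistant lines and was 1.59-fold higher in LIM1215-R2 (0.67, SE 0.0582, adjusted p = 3.3e-09).

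**Figure D2:**
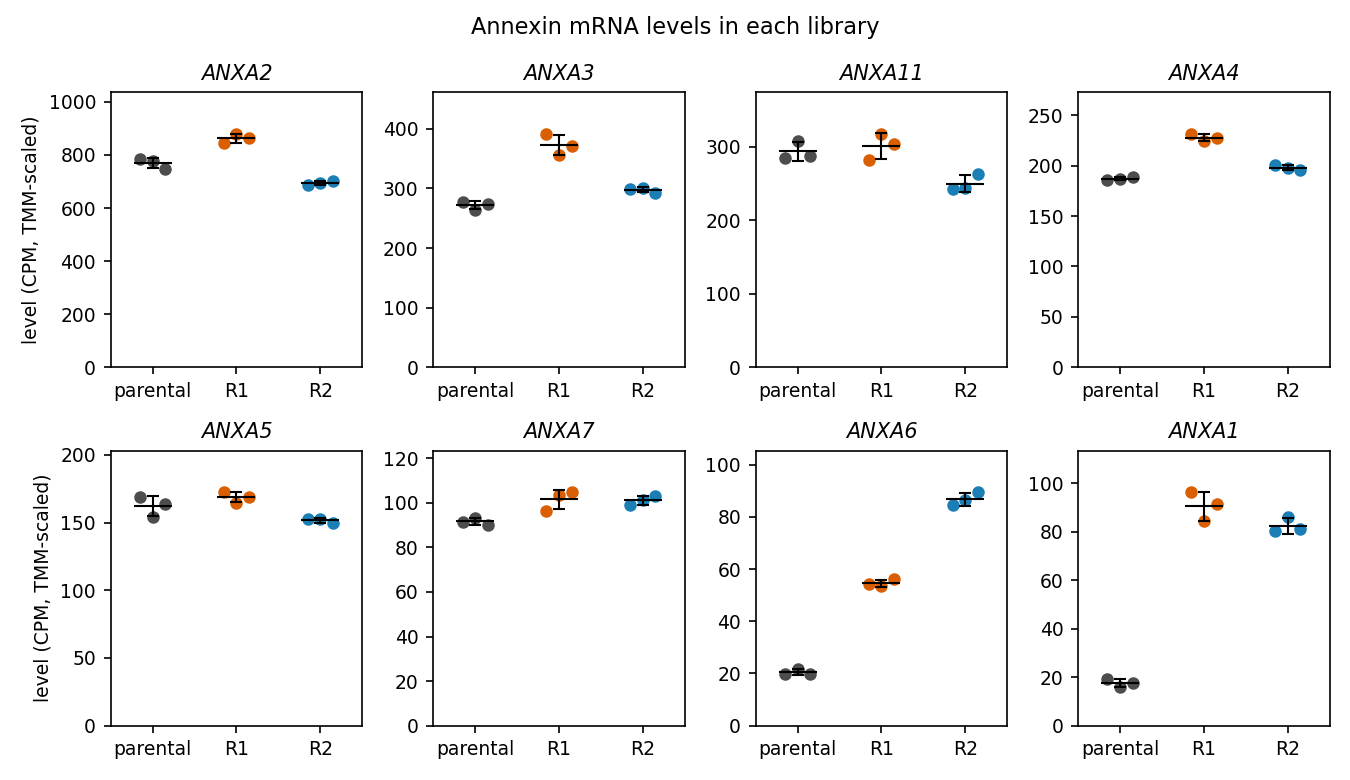
Levels in CPM (y axes, each from 0) of the 8 annexins with more than 10 CPM in each of the 3 lines (x axes), with a point per library, a line at the mean and bars of 1 SD. ANXA1 rises from 16.0 to 19.1 CPM in parental libraries to 80.1 to 96.1 in resistant ones, and ANXA6 forms 3 separate steps.

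ANXA2 (ENSG00000182718, chromosome 15, 60347134-60402883, minus strand) forms a heterotetramer with S100A10 under the plasma membrane and binds plasminogen and its activator at the cell surface. Its level was 786, 776 and 748 CPM in the parental libraries, 846, 879 and 865 in LIM1215-R1 and 688, 694 and 702 in LIM1215-R2. These ranges did not overlap, and the parental one lay in the middle. ANXA2 was higher in LIM1215-R1 by 0.16 on the log2 scale (SE 0.0363, adjusted p = 6.28e-04), that is 12.1%. It was lower in LIM1215-R2, at -0.15 on that scale (SE 0.0364, adjusted p = 0.00203). Without parental replicate 1, LIM1215-R2 replicate 1 or LIM1215-R2 replicate 2, the adjusted p in LIM1215-R2 was 0.0176, 0.0132 or 0.0128 and ANXA2 was no longer called there. The processed pseudogenes of ANXA2 could share its reads, and ANXA2P2, which is 98.43% identical to the canonical transcript over 1020 aligned bases with a longest identical run of 221, had 10.6 ± 1.52, 10.9 ± 0.959 and 9.70 ± 2.28 CPM in parental, LIM1215-R1 and LIM1215-R2 cells.

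ANXA3 (chromosome 4, 78551747-78610451, plus strand) and ANXA4 (chromosome 2, 69644425-69827112, plus strand) differed from parental cells in LIM1215-R1. ANXA3, lipocortin III, was at 278, 264 and 274 CPM in the parental libraries, 391, 357 and 370.4 in LIM1215-R1 and 299.8, 301 and 293 in LIM1215-R2. Each LIM1215-R1 library thus lay above the other 6. ANXA3 was 1.37-fold higher in LIM1215-R1 (log2 fold change 0.46, SE 0.0436, adjusted p = 2.2e-09), and in LIM1215-R2 its change of 0.13 on the log2 scale (SE 0.0438, adjusted p = 0.0215) did not pass. ANXA4, an annexin of secretory epithelia found at apical membranes, was at 186, 187 and 189 CPM in the parental libraries, 232, 224 and 228 in LIM1215-R1 and 200.4, 198 and 195 in LIM1215-R2. It was 1.22-fold higher in LIM1215-R1 (0.28, SE 0.0431, adjusted p = 5.97e-06). The ANXA4 difference of 0.08 in LIM1215-R2 did not pass (95% interval -0.0052 to 0.16, adjusted p = 0.177).

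ANXA5, ANXA7 and ANXA11 were not called in LIM1215-R1. ANXA5 (chromosome 4, 121667946-121696995, minus strand), whose protein is the common probe for phosphatidylserine on dying cells, was at 169, 154 and 164 CPM in the parental libraries, 172, 165 and 169 in LIM1215-R1 and 153, 152 and 149.6 in LIM1215-R2. Its log2 fold changes of 0.06 (95% interval -0.04 to 0.15, adjusted p = 0.411) and -0.10 (-0.19 to -0.0050, adjusted p = 0.123) did not pass, and they amounted to 3.94% and -6.63%. ANXA7 (chromosome 10, 73375101-73414076, minus strand), synexin, a membrane fusion protein of secretory granules, was at 91.6, 93.2 and 90.2 CPM, then 96.5, 103 and 105 in LIM1215-R1 and 99.0, 101 and 103 in LIM1215-R2. All 6 resistant libraries lay above the 3 parental ones, although neither comparison was called (log2 fold changes 0.15 and 0.14, adjusted p = 0.0272 and 0.038). The ANXA7 exons overlap a lncRNA on the opposite strand by 105 bases, and the authors counted reads by strand.

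ANXA11 (chromosome 10, 80150889-80205572, minus strand) encodes a binding partner of PDCD6 that also tethers RNA granules to lysosomes. It was at 285, 308 and 288 CPM in the parental libraries, 283, 318 and 304 in LIM1215-R1 and 243, 244 and 263 in LIM1215-R2. Libraries of that line were the lowest 3 and the other lines overlapped. ANXA11 fell in LIM1215-R2 at -0.23 on the log2 scale (SE 0.0492, adjusted p = 4.26e-04), and its value in LIM1215-R1 was 0.04 (95% interval -0.06 to 0.13, adjusted p = 0.621).

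ANXA13 and ANXA10 lay at the limit of detection. With 0 counts in a library, 0.158 to 0.217 CPM, which is what 3 counts amount to, remained possible, and such limits cover counting error only. ANXA13 (chromosome 8, 123680794-123737402, minus strand) had 6, 10 and 8 counts in the parental libraries, 3, 3 and 2 in LIM1215-R1 and 1, 0 and 5 in LIM1215-R2. Parental libraries held the highest values, at 0.499 ± 0.196 CPM. Its log2 fold changes of -1.51 (SE 0.696, adjusted p = 0.0944) and -1.90 (SE 0.734, adjusted p = 0.0483) were not called, and without LIM1215-R2 replicate 3, which held 5 of the 6 counts of its line, the latter was -3.71 with an adjusted p of 0.00605. ANXA10 (chromosome 4, 168092537-168187736, plus strand), known from gastric epithelium, had 0 counts in the parental libraries together, which allows up to 0.0602 CPM. LIM1215-R1 held 1 ANXA10 count and LIM1215-R2 held 2, both no more than that limit of 3 counts. Gastric markers summed to 19.1 to 27.4 CPM in parental cells, 19.0 to 22.2 in LIM1215-R1 and 295.8 to 300.02 in LIM1215-R2, almost all of it the mucin MUC5AC. MUC6 had 0, 17 and 66 counts in these lines, and GKN1, GKN2, TFF2 and CLDN18 were at 0 in all libraries. The part of these in any annexin value was not tested.

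Between the resistant lines, 5 members were called, ANXA6 higher in LIM1215-R2 and ANXA2, ANXA3, ANXA4 and ANXA11 lower. This compares with 3.39% of all genes tested that were higher and 3.77% that were lower. The median of the 9 members was -0.20 on the log2 scale, beside -0.0011 over all genes. ANXA2 was lower by 0.31 (SE 0.0363, adjusted p = 5.47e-07 in edgeR's quasi-likelihood test), ANXA3 by 0.32 (SE 0.0435, adjusted p = 5.56e-06), ANXA4 by 0.20 (SE 0.0430, adjusted p = 0.0016) and ANXA11 by 0.27 (SE 0.0492, adjusted p = 3.23e-04). The libraries of LIM1215-R1 lay above those of LIM1215-R2 without overlap for each of these genes. Since the genes were named for their calls between the same libraries, this adds nothing to the calls. The share of all genes without overlap was not counted. The ANXA4 call was lost without LIM1215-R1 replicate 3 (adjusted p = 0.0117) or LIM1215-R2 replicate 2 (0.0135). ANXA5 was 10.2% lower in LIM1215-R2 with an adjusted p of 0.0312, and ANXA7 differed by -0.01 with a 95% interval from -0.11 to 0.10 (adjusted p = 0.968). No member was a DEG by edgeR or by DESeq2 in this comparison (0.215% of all genes were DEGs that were higher and 0.550% DEGs that were lower). An unadjusted p under 0.05 was reached by 7 of the 9 members in edgeR. Shares of all genes at that looser threshold were not counted, in this comparison or the others.

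Per length, the order of the annexins was led by ANXA2 in every line. Levels were divided by the length of the canonical transcript and are in CPM per kb. In parental cells ANXA2 had 496 ± 12.5, ANXA3 189.8 ± 4.89, ANXA5 99.1 ± 4.65, ANXA4 70.6 ± 0.509, ANXA11 43.6 ± 1.86, ANXA7 37.5 ± 0.604, ANXA1 12.6 ± 1.10 and ANXA6 7.10 ± 0.369. No neighbours in this order overlapped. ANXA1 moved from the 7th place to the 5th in both resistant lines, at 64.6 ± 4.26 in LIM1215-R1 and 58.8 ± 2.26 in LIM1215-R2. ANXA11 and ANXA7, at 44.7 ± 2.61 and 41.6 ± 1.79, overlapped in LIM1215-R1, and in LIM1215-R2 ANXA7 (41.4 ± 0.872) lay above ANXA11 (37.1 ± 1.70). ANXA6 remained the lowest of the 8 well detected members at 18.9 ± 0.456 and 30.0 ± 0.866. ANXA13 and ANXA10 came last everywhere and overlapped in LIM1215-R2.

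Of the length-scaled level of all members, ANXA2 made up 51.8% in parental cells, 47.3% in LIM1215-R1 and 45.2% in LIM1215-R2. ANXA1 made up 1.32%, 5.50% and 5.94%, and ANXA6 0.742%, 1.61% and 3.03%. The order depends on the transcript used, since the canonical ANXA11 transcript has 6734 bases, and the coding transcripts of ANXA6 have a median of 1176 bases beside 2889 for its canonical one. With the median length of the coding transcripts, ANXA6 (17.4 CPM per kb) lay above ANXA1 (16.0) in parental cells and took the 6th place in LIM1215-R2 (73.7), above ANXA11 (54.0) and ANXA7 (46.5). Not scaled by length, the 10 members together took 1816 ± 22.4 CPM in parental cells, 2181 ± 9.25 in LIM1215-R1 and 1862 ± 14.8 in LIM1215-R2. These sums were 0.182%, 0.218% and 0.186% of the counts.

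**Figure D3:**
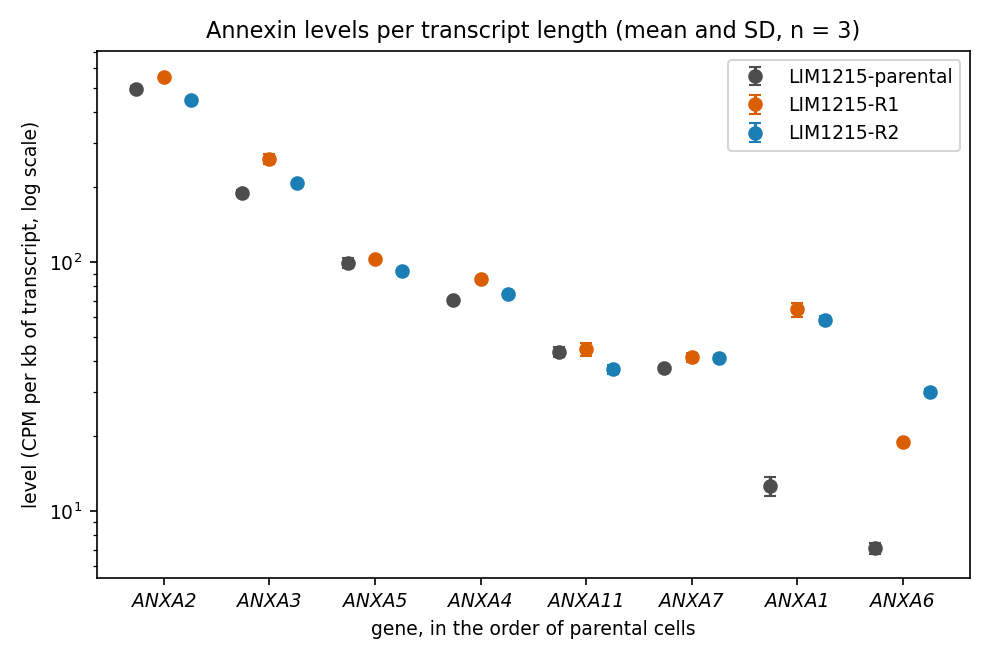
Levels per transcript length in CPM per kb (y axis, log scale) of 8 annexins, ordered along the x axis by their level in parental cells, as mean and SD of 3 libraries per line. ANXA2 leads in each line at 447 to 556 CPM per kb, and ANXA1 and ANXA6, last in the parental order, lie far above their parental points in both resistant lines.

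The genes most like ANXA1 and ANXA6 over the 9 libraries were ranked by the Pearson correlation of log2 CPM among 10334 other genes with a mean of at least 5 CPM. They are named as a description, since the 9 points fall into 3 lines and any gene with the same steps between lines scores high. For ANXA1 these were FRMD5 (r = 0.998, log2 fold changes 1.43 in LIM1215-R1 and 1.41 in LIM1215-R2), NRCAM, a neural cell adhesion molecule (0.998, 2.41 and 2.18) and the lactate transporter SLC16A1 (0.997, 0.65 and 0.66). ANXA6, with its 3 steps, was most like SEC23B of the COPII coat (0.997, 0.39 and 0.59), the N-glycan branching enzyme MGAT5 (0.997, 0.92 and 1.32) and the transporter SLC6A20 (0.996, 0.74 and 1.03).

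The remaining annexin loci were mostly silent or not separable. Of the 6 loci ANXA8, ANXA8L1, ANXA9 and 3 ANXA2 pseudogenes, 5 were tested, and only ANXA9 was called, higher in each resistant line. Over all genes tested, 14.0% were called higher and 13.4% lower in LIM1215-R1, and 12.3% and 11.6% in LIM1215-R2. A count of 1 in 5 does not set these loci apart from those shares. ANXA9, an annexin whose core lacks functional calcium sites, was at 1.71, 1.16 and 2.21 CPM in parental libraries, 4.78, 3.33 and 4.94 in LIM1215-R1 and 2.91, 3.65 and 3.27 in LIM1215-R2. Its log2 fold change was 1.33 in LIM1215-R1 (SE 0.223, adjusted p = 2.44e-05) and 0.92 in LIM1215-R2 (SE 0.232, adjusted p = 0.00281), where the call was lost without parental replicate 1, parental replicate 2 or LIM1215-R2 replicate 2 (adjusted p up to 0.0212). ANXA8 had 24, 15 and 8 counts in parental, LIM1215-R1 and LIM1215-R2 cells and its copy ANXA8L1 had 0 in all libraries. Their transcripts are 99.53% identical, so how reads split between them is uncertain.

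S100 proteins dock on annexin tails, and 4 of the 5 S100 partners tested changed against parental cells in each resistant line, 3 higher and 1 lower. Over all genes tested, 14.0% were called higher and 13.4% lower in LIM1215-R1, and 12.3% and 11.6% in LIM1215-R2. The exception in direction was S100A10, the partner of ANXA2, at 525, 523 and 532 CPM in the parental libraries, 347, 347 and 348 in LIM1215-R1 and 358, 334 and 345 in LIM1215-R2. S100A10 was lower by 0.60 on the log2 scale in LIM1215-R1 (SE 0.0399, adjusted p = 1.41e-12) and by 0.61 in LIM1215-R2 (SE 0.0399, adjusted p = 1.07e-12). The level of ANXA2 for each unit of S100A10, both per kb of transcript, was 0.647, 0.641 and 0.608 in the parental libraries, 1.05, 1.09 and 1.07 in LIM1215-R1 and 0.830, 0.897 and 0.880 in LIM1215-R2. This ratio of RNA levels was highest in LIM1215-R1 and the 3 ranges did not overlap. S100A11, the partner of ANXA1, rose 1.55-fold in LIM1215-R1 and 1.44-fold in LIM1215-R2 (log2 fold changes 0.63 and 0.52, adjusted p = 6.14e-11 and 2.64e-09), and S100A6, which binds ANXA2 and ANXA11 among others, rose 1.38-fold and 1.45-fold (adjusted p = 8.08e-09 and 4.37e-10). S100A4, a metastasis-associated binder of ANXA2, was at 1.71 ± 0.309 CPM in parental cells, 3.96 ± 0.726 in LIM1215-R1 and 13.7 ± 0.791 in LIM1215-R2. Its log2 fold changes were 1.22 (SE 0.199, adjusted p = 1.5e-05) and 3.02 (SE 0.165, adjusted p = 2.28e-14), and LIM1215-R2 also exceeded LIM1215-R1 by 1.79 (adjusted p = 5.42e-10). The median of the 5 partners was 0.46 in LIM1215-R1 and 0.52 in LIM1215-R2.

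Receptors for annexins were hardly detected. The formyl peptide receptors, through which secreted ANXA1 acts, had 1 count (FPR1), 0 counts (FPR2) and 1 count (FPR3) in all 9 libraries together, and the plasminogen gene PLG had 0. Of the 7 genes of this list, 3 were tested and 0 called by edgeR or DESeq2 in any comparison. Over all genes tested, edgeR called 14.0% higher and 13.4% lower in LIM1215-R1, and 12.3% and 11.6% in LIM1215-R2. Between the resistant lines these shares were 3.39% and 3.77%. With 3 genes tested, 0 calls do not set the list apart from these shares. In edgeR, 1 gene had an unadjusted p under 0.05 in LIM1215-R1 and 2 in LIM1215-R2, all higher. The plasminogen activator PLAT had 1, 13 and 14 counts in parental, LIM1215-R1 and LIM1215-R2 cells, a ratio of 13.4 (exact 95% counting interval 2.02 to 571) in LIM1215-R1 that was not called (adjusted p = 0.0127), and ANXA2R had 6, 9 and 20. The plasminogen receptor PLGRKT was the detected member, at 16.1 ± 0.600, 14.6 ± 0.596 and 14.8 ± 0.638 CPM.

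Of the kinases that phosphorylate annexin tails, EGFR was at 272, 280.5 and 277 CPM in the parental libraries, 223, 239 and 228 in LIM1215-R1 and 297, 292 and 268 in LIM1215-R2. It was lower in LIM1215-R1 by 0.26 on the log2 scale (SE 0.0464, adjusted p = 4.41e-05) and not called in LIM1215-R2. Between the resistant lines EGFR was called higher in LIM1215-R2. With each library left out, that log2 difference ranged from 0.28 to 0.35 (edgeR adjusted p up to 9.75e-04). SRC was lower by 0.37 and PRKCE higher by 0.37 in LIM1215-R2 (adjusted p = 7.28e-04 and 0.00196), the PRKCE call being lost without parental replicate 1 (0.0146) or LIM1215-R2 replicate 1 (0.0191), and YES1 and PRKCA were not called in any comparison. Phospholipase A2 and the glucocorticoid axis are linked to ANXA1. PLA2G4A, the cytosolic phospholipase A2, rose 1.76-fold in LIM1215-R1 and 1.96-fold in LIM1215-R2, from 9.63 ± 0.841 CPM to 17.1 ± 1.64 and 19.0 ± 0.107 (adjusted p = 2.63e-07 and 1.04e-08). The glucocorticoid receptor NR3C1 had 2, 1 and 1 counts in parental, LIM1215-R1 and LIM1215-R2 cells. FKBP5, a glucocorticoid target, fell from 96 counts in the parental libraries to 2 in LIM1215-R1 and 1 in LIM1215-R2, so that it was 46.4-fold lower in the former (exact 95% counting interval 12.5 to 389) and 93.0-fold in the latter (16.3 to 3711). TSC22D3, another such target, had 29, 27 and 31 counts and was not called.

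Membrane repair genes, which act with annexins at plasma membrane wounds, were represented by 10 tested of 12, with 3 called higher and 1 lower in each resistant line and medians of 0.01 and 0.05. The share called lower, 1 of 10, was near that over all genes (13.4% and 11.6%), and 14.0% and 12.3% of all genes were called higher. SYT7, a calcium sensor of lysosomal exocytosis, rose from 1.95, 3.11 and 3.47 CPM in parental libraries to 42.3, 44.5 and 39.7 in LIM1215-R1 and 28.1, 28.5 and 31.3 in LIM1215-R2. These are log2 fold changes of 3.88 (SE 0.123, adjusted p = 1.75e-19) and 3.36 (SE 0.128, adjusted p = 8.2e-18), larger in size than those of ANXA1, and the difference between the resistant lines was called as well (-0.52, adjusted p = 8.61e-05). MYOF (myoferlin) rose 1.78-fold and 1.89-fold, EHD1 was higher by 0.42 and 0.32 on the log2 scale, and the caveolar protein CAV1 was lower by 0.65 and 1.14 (adjusted p = 1.87e-07 and 1.14e-11). PDCD6, the partner of ANXA7 and ANXA11, and PDCD6IP, PEF1, CHMP4B, AHNAK and EHD2 were not called, and DYSF and TRIM72 had too few counts to be tested.

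Flippases and scramblases set how much phosphatidylserine, the annexin ligand, faces outward. Of 10 such genes 9 were tested, with 0 called higher and 3 lower in LIM1215-R1 and 1 higher and 2 lower in LIM1215-R2, and medians of -0.16 and -0.11, beside 14.0% higher and 13.4% lower of all genes in the former and 12.3% and 11.6% in the latter. For the count of 0 in LIM1215-R1, edgeR gave 1 gene higher at an unadjusted p under 0.05 and DESeq2 called 0. The flippase ATP8A1 fell from 237, 215 and 245 CPM in parental libraries to 83.4, 80.0 and 84.7 in LIM1215-R1 and 107, 102 and 104 in LIM1215-R2. Its log2 fold changes were -1.49 (SE 0.0538, adjusted p = 2.79e-18) and -1.16 (SE 0.0529, adjusted p = 4.42e-16), and ATP8B1 was lower as well, by 0.45 and 0.26. Between the resistant lines ATP8B1 was called higher in LIM1215-R2 by 0.19 (adjusted p = 0.00577), which was lost when any of 4 libraries was left out (up to 0.0762). TMEM30A, the common flippase subunit, was lower by 0.19 in LIM1215-R1 alone (adjusted p = 0.00614), a call lost when any of 6 libraries was left out (adjusted p up to 0.0563), and the scramblase PLSCR1 was higher by 0.26 in LIM1215-R2 (adjusted p = 5.56e-04).

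The copines, another family of calcium-dependent phospholipid binders, had 5 of 9 genes tested, with 2 called higher and 0 lower in each line by edgeR and by DESeq2, where 14.0% and 12.3% of all genes were called higher and 13.4% and 11.6% lower. At an unadjusted p under 0.05, 0 copines were lower in LIM1215-R1 and 1 in LIM1215-R2. CPNE7 rose from 36.6 ± 5.28 CPM to 57.9 ± 3.04 in LIM1215-R1 and 69.6 ± 6.45 in LIM1215-R2 (log2 fold changes 0.66 and 0.92, adjusted p = 3.26e-07 and 5.42e-10). CPNE5 had 0, 14 and 9 counts in parental, LIM1215-R1 and LIM1215-R2 cells, at least 4.82-fold higher in LIM1215-R1 against the level of 3 counts in the parental group (adjusted p = 0.00685), and CPNE8 was at 0 in all libraries. The CPNE5 call was lost when any of 5 libraries was left out (adjusted p up to 0.0324). CPNE2 was higher by 0.40 in LIM1215-R2 (adjusted p = 0.00337), lost without parental replicate 1 or 3 or LIM1215-R2 replicate 1 or 3 (adjusted p up to 0.0416).

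**Figure D4:**
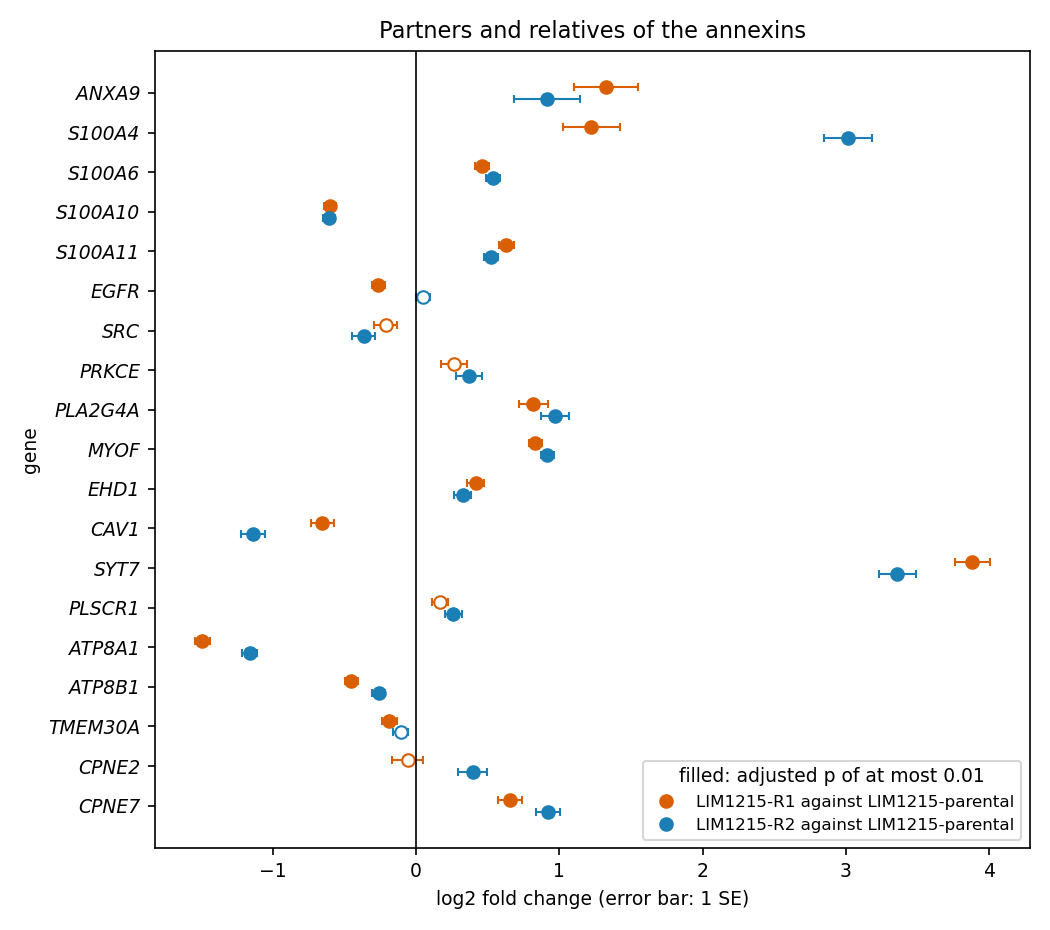
Log2 fold changes (x axis) in LIM1215-R1 (orange) and LIM1215-R2 (blue), each compared with parental cells, of the listed partner and relative genes (y axis) that were called in at least 1 line, leaving out those with 3 or fewer counts in a line, with bars of 1 SE and filled points for an adjusted p of at most 0.01. SYT7 lies farthest to the right in both lines, S100A4 is near it only in LIM1215-R2, and ATP8A1, CAV1 and S100A10 lie left of 0 in both.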

How the data were processed

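The authors aligned paired-end reads of stranded polyA libraries to hg38 with STAR and counted them per gene with htseq-count 0.9.1 on the reverse strand, per the submitters' processing notes and the study's methods. The gene annotation is not given in the sources used here. They deposited raw counts of 58920 genes for each of 9 libraries, with no normalization. Libraries were grouped by line from their titles. In R 4.3.3, genes whose 9 libraries summed to 10 counts or more were scaled by TMM and tested with edgeR 4.0.16 (quasi-likelihood, 3 lines in 1 model, Benjamini-Hochberg over 19102 genes). SEs were derived from the test statistic, and 95% intervals are 1.96 SE. The common biological coefficient of variation was 4.923%. Positions and lengths came from GENCODE release 44 (GRCh38), promoters from RefSeq, and identities from alignments with Biopython 1.88. Members and lists were chosen with earlier results of these data known. Named were all members, genes of the partner and relative lists called at a log2 change of 1 or more in size or at 0 counts, and the 3 genes most like each member that was so called. Other genes named in the lists were chosen after their values were seen. The alternatives were DESeq2 1.42.0 and its size factors, total counts, other filters, 6-library fits, pseudogene counts added to ANXA2, the replicate block, another DEG threshold and each library left out. Tests had been tried on simulated counts before.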

Additional observations from a re-analysis of the deposited data

Results flagged for a closer look

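In 5 annexins, the change against parental cells differed between the resistant lines by the test of LIM1215-R2 against LIM1215-R1 in edgeR, which is the test of that difference. Log2 differences were 0.67 for ANXA6, -0.31 for ANXA2, -0.32 for ANXA3, -0.20 for ANXA4 and -0.27 for ANXA11. ANXA2 was called in opposite directions against parental cells, 0.16 in LIM1215-R1 and -0.15 in LIM1215-R2, and the latter was lost when any of 3 libraries was left out. No group had more than 3 libraries, so none was examined for a library that stands apart from its group.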

How the results depend on the processing

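The number of annexins called stayed within 1.5 times of its value under every alternative run (5 in LIM1215-R1, 3 to 5 in LIM1215-R2 and 4 to 5 between the resistant lines), and so did the DEGs, except that a threshold of 1 on the log2 scale gave 2 annexin DEGs in LIM1215-R1 in place of 1, since ANXA6 lay between the thresholds. With each library left out in turn, calls of 2 annexins were lost as given with the results, and the DEGs in LIM1215-R2 numbered 2 to 3. Directions turned for 3 annexin differences that were not called: ANXA11 in LIM1215-R1 ranged from -0.0022 to 0.081 with libraries left out, ANXA7 between the resistant lines from -0.042 to 0.016, and with total counts as scaling it was 0.012, and ANXA13 between the resistant lines ranged from -2.19 to 0.17. Other scalings moved the median of all genes by at most 0.034 in size. For the partner genes called, 331 of the values under other settings kept their call, and 2 lost it, ATP8B1 between the resistant lines (adjusted p = 0.0113 with at least 10 counts in every library) and TMEM30A in LIM1215-R1 (0.0186 with 6 libraries). With libraries left out, 349 kept it and 29 lost it. Same-numbered libraries of different lines had correlations of deviations from -0.184 to 0.525, and libraries with unlike numbers from -0.522 to 0.392. These ranges overlap, so a pairing by number was neither shown nor excluded, and the main fit used none. The replicate block raised the calls over all genes from 5222 to 5841, from 4554 to 5197 and from 1368 to 2044, the annexins called were 5, 5 and 5, and ANXA3 in LIM1215-R2 then passed (0.13, adjusted p = 0.00632). ANXA10 and ANXA13 were limited by depth.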

Other observations

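Genes within 500 kb of each tested annexin in the annotation were looked at as a description. ANXA1 had 1 tested neighbour, the retinaldehyde dehydrogenase gene ALDH1A1, 71423 bases away, with 78 counts in parental cells, 2 in LIM1215-R1 and 0 in LIM1215-R2, while ANXA1 was higher in both. That is 37.7-fold lower in LIM1215-R1 (exact 95% counting interval 10.1 to 317) and, against 3 counts in the group, at least 25.2-fold lower in LIM1215-R2 (edgeR adjusted p = 6.68e-07 and 1.34e-07). Of the 8 tested neighbours of ANXA6, 4 were called higher and 1 lower in LIM1215-R1, and 3 higher and 1 lower in LIM1215-R2, with medians of 0.21 and 0.16. Over all genes tested, 14.0% were called higher and 13.4% lower in the former and 12.3% and 11.6% in the latter. CCDC69, 23237 bases from ANXA6, had log2 fold changes of 1.26 and 0.99, and SMIM3, 303972 bases away, 1.29 and 1.47. The neighbour called lower was SYNPO, 441499 bases away, at -1.15 in LIM1215-R1 and -1.48 in LIM1215-R2 (edgeR adjusted p = 7.86e-04 and 8.11e-05). Near ANXA2, the nuclear receptor gene RORA had 0 counts in parental cells, 922 in LIM1215-R1 and 1058 in LIM1215-R2. Against 3 counts in the parental group, this is at least 318-fold higher in the former and at least 364-fold higher in the latter, while ANXA2 itself moved by 0.16 and -0.15 on the log2 scale. FER1L6, a ferlin gene 114585 bases from ANXA13, rose by 1.29 in LIM1215-R1 and 1.89 in LIM1215-R2 (adjusted p = 1.66e-10 and 2.3e-14). Near ANXA11, MAT1A had log2 fold changes of 3.13 in LIM1215-R1 and 2.21 in LIM1215-R2, with 12 counts in parental cells. PRXL2A, also near ANXA11, went the other way at -1.93 and -5.49, with 298 counts in parental cells. These neighbours were chosen after their values were seen.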
